A study of Mus musculus with 12 samples.

Results

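Gene expression in mouse liver after ATRA and DEN had been given together for 2 days was compared with that of vehicle on the same day. ATRA is all-trans retinoic acid, the hormone form of vitamin A. DEN is diethylnitrosamine, a liver carcinogen that alkylates DNA after it is activated by cytochrome P450 enzymes. The series holds 12 arrays, 6 treatments at day 2 and at day 7. The contrast uses 2 of them, and the ATRA array and the DEN array of day 2 serve to set the combined difference against the sum of both single-compound differences. All 4 arrays lie on 1 slide. The mice were wild-type males of the ICR strain, 5 weeks old when bought and adapted for 1 week, and every group drank its treatment. Vehicle mice drank water, ATRA was given at 30 mg/L (about 150 µg per day), DEN at 80 mg/L (about 400 µg per day), and ATRA+DEN mice received both. ATRA came in a mixture of ethanol and dimethyl sulfoxide, and the labels name only water for the vehicle, so the solvent and ATRA cannot be told apart. Each group is 1 array, so no difference here has a replicate check, no test was made and no p-value is given. Whether an array holds RNA of 1 mouse or of a pool is not given in the sources used here.

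Retinoic acid acts through nuclear receptors (RAR and RXR) that bind DNA as pairs and switch on genes such as the Cyp26 hydroxylases, which in turn break the hormone down. DNA damage by alkylating carcinogens stabilises the transcription factor p53, whose targets stop the cell cycle, repair DNA or lead to cell death. In the liver, SREBP transcription factors raise enzymes of cholesterol and of fatty acid synthesis. The signals they respond to include scarce sterols and high insulin.

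Levels are log2 processed intensities minus the array's 75th percentile, so that 0 marks that percentile, and differences are log2. A gene was kept where its probe was well above background on both arrays, which held for 18541 of 34741 genes. Of these, 426 (2.3%) were at least 2-fold higher with ATRA+DEN than with vehicle and 373 (2.01%) were at least 2-fold lower. The median difference of the kept genes was -0.07 and their SD was 0.49. The only repeated measurement on an array is that of probes printed several times, whose spots had a median SD of 0.07. That gives a spot error of 0.10 for a difference between 2 arrays and 0.14 for a value made from 4 arrays. It holds neither the spread between mice nor that of labelling.

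The vehicle array enters every difference from vehicle, and pancreas markers stood higher on it than on the other 3 arrays. All 16 pancreas markers on the array design were well above background in vehicle, against 6 in ATRA, 7 in DEN and 7 in ATRA+DEN. Their summed level was 6.35 in vehicle, 3.40 in ATRA, 3.45 in DEN and 3.06 in ATRA+DEN. The 7 markers kept had a median difference of -2.95, and the other 9 were above background in vehicle and not in ATRA+DEN. Among the genes above background on 1 array only, the 5 largest bounds of lower expression were Try5 (at least 162-fold), Try4 (146-fold), Cpa1 (70.7-fold), Cpb1 (57.4-fold) and Reg1 (51.0-fold), all made by the exocrine pancreas. The part of this tissue in the other differences from vehicle was not tested. Globin genes also differed. Hba-a1 stood at 6.24 in vehicle, 4.85 in ATRA, 2.98 in DEN and 2.61 in ATRA+DEN, and the 5 red cell genes that were at least 2-fold lower were globins, whose near-identical copies a probe may not tell apart. Their order ran from vehicle over ATRA and DEN to ATRA+DEN in all 5. The 25 hepatocyte markers were all above background on all 4 arrays, at a summed level of 14.53 in vehicle and 14.13 in ATRA+DEN, and none differed 2-fold. Yet 24 of the 25 lay below vehicle where 57.6% of all kept genes did. On the vehicle array 21 were highest, against 33.6% of all genes above background on all 4 arrays. The median of the hepatocyte markers was -0.34, and it was -0.22 with normexp background correction and -0.10 with quantile normalization. In RNA of whole liver, fewer cells of a type and less RNA per cell cannot be told apart.

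**Figure D1:**
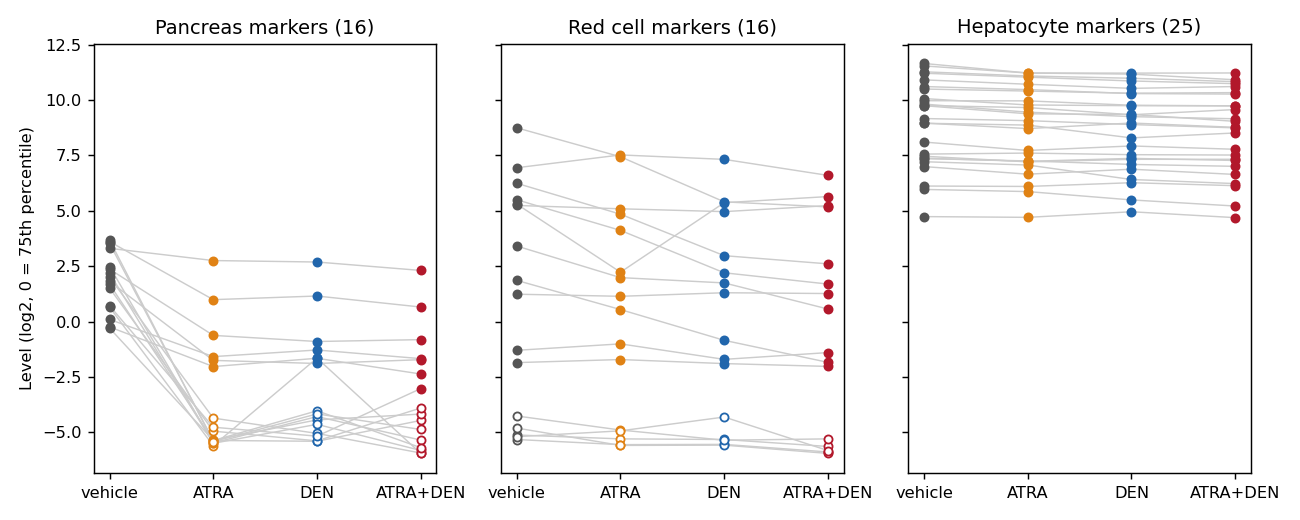
Levels of the 16 pancreas, 16 red cell and 25 hepatocyte markers on the array design in each of the 4 day-2 arrays (log2, 0 is the 75th percentile of the array). Each line is 1 gene, filled points were well above background and open points were not. All pancreas points of vehicle are filled, the globins step down from vehicle to ATRA+DEN, and the hepatocyte lines differ by less than 2-fold between vehicle and ATRA+DEN.

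The 12 genes furthest above vehicle included both Cyp26 hydroxylases and the p53 target Phlda3. Cyp26b1 (a retinoic acid hydroxylase, chromosome 6, 84521952 to 84522011 on build mm9) had a level of -0.24 in vehicle, 5.85 in ATRA, 2.12 in DEN and 6.00 in ATRA+DEN. The combined treatment was 75.7-fold above vehicle. Cyp26a1, the main retinoic acid hydroxylase of liver (chromosome 19, 37775566 to 37775625), had a level of 0.42 in vehicle, 6.63 in ATRA, 1.87 in DEN and 6.40 in ATRA+DEN, a 63.0-fold difference. The ATRA+DEN array differed from the ATRA array by 0.16 in Cyp26b1 and by -0.23 in Cyp26a1, and from the DEN array by 3.89 and 4.53. In both genes the DEN array stood between vehicle and ATRA.

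Of the 32 genes on the list of retinoid response and metabolism, 25 were kept. Of these, 4 were at least 2-fold higher (2.3% of all kept genes were) and none was lower (2.01%). The other 21 members were less than 2-fold from vehicle, and the list median was 0.08 against -0.07 over all kept genes. Besides both Cyp26 genes, Lrat, which esterifies retinol for storage, had levels of 0.12 in vehicle, 2.33 in ATRA, 0.28 in DEN and 2.24 in ATRA+DEN. It was 2.12 above vehicle. Rarb, the retinoid receptor that is itself a retinoid target, had 0.09 in vehicle, 1.54 in ATRA, 0.62 in DEN and 1.73 in ATRA+DEN, a difference of 1.65, although another of its probes gave -0.20. In Lrat and Rarb the arrays fell into pairs, ATRA and ATRA+DEN high, vehicle and DEN low. Rdh11, a retinal reductase, was -0.99 from vehicle, just under 2-fold, and was lowest with both compounds.

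The 200 bases before the start of Cyp26a1 and of Rarb are shown because both hold a retinoic acid response element, here in capitals, in the form of 2 direct half-sites spaced by 5 bases (the DR5 type), searched on both strands. They are from RefSeq, build GRCm38.p6, chr19:37697608-37697807 on the plus strand and chr14:16575477-16575676 on the minus strand, written 5′ to 3′.
Cyp26a1: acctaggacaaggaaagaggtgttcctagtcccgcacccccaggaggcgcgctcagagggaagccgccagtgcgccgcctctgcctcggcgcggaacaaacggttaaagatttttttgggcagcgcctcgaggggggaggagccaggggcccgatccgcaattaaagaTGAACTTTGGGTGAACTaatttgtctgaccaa
Rarb: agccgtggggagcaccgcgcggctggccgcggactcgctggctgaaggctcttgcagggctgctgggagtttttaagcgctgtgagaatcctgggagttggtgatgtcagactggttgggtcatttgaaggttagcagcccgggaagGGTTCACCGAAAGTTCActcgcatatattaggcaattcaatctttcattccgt
The element began 32 bases before the start of Cyp26a1 and 53 before that of Rarb. It was in 2 of the 25 list genes that have such a sequence and in 0.064% of all 32851 sequences of that length. No match in the other 23 says only that these letters are not in that stretch.

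NKG2D ligands, cell-surface proteins that mark stressed cells for natural killer cells, include the Raet1 family. Of 9 genes on the list 2 were kept, and both were at least 2-fold higher. Raet1e had a level of -0.00 in vehicle, 6.09 in ATRA, 2.72 in DEN and 5.52 in ATRA+DEN, which is 46.0-fold above vehicle with both compounds. Raet1b had 1.74 in vehicle, 5.92 in ATRA, 2.92 in DEN and 5.39 in ATRA+DEN, with a difference of 3.65. Both stood highest with ATRA alone and lay between vehicle and ATRA+DEN with DEN alone. The genes of this family are near-identical, and a probe may not tell them apart.

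The p53 list gave the other main group of higher genes. Of 35 members 27 were kept, 10 were at least 2-fold higher (2.3% of all kept genes were), and none was 2-fold lower (2.01%). Another 6 were above background with ATRA+DEN and not with vehicle, of which Ddias alone had a bound above 2-fold. The list median was 0.51 with both compounds, 0.04 with ATRA and 0.91 with DEN, against -0.07, -0.05 and -0.05 over all kept genes. Phlda3, an inhibitor of Akt signalling, had the largest difference, with levels of -1.32 in vehicle, -1.49 in ATRA, 3.70 in DEN and 3.20 in ATRA+DEN, which is 22.8-fold. The DEN and ATRA+DEN arrays were far above the other pair. Cdkn1a, the p21 inhibitor of cyclin-dependent kinases (chromosome 17, 29237377 to 29237436), had 1.12 in vehicle, 2.13 in ATRA, 4.02 in DEN and 3.39 in ATRA+DEN, and the combined array lay 4.83-fold above vehicle. From low to high the order was vehicle, ATRA, ATRA+DEN and DEN. Mdm2, the ligase that degrades p53 (chromosome 10, 117126010 to 117126069), had 3.51 in vehicle, 3.45 in ATRA, 4.74 in DEN and 4.81 in ATRA+DEN, which is 2.46-fold, with DEN and ATRA+DEN within 0.07 of each other.

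Other p53 targets had the same pattern of high DEN and ATRA+DEN arrays. Tnfrsf10b, a death receptor, was 2.24 above vehicle. Btg2, an antiproliferative gene, was 1.72 above it. Gdf15, a stress hormone, had levels of 0.90 in vehicle, -0.15 in ATRA, 3.59 in DEN and 2.57 in ATRA+DEN. Its difference was 1.67. Ccng1, a cyclin induced by DNA damage, was at 0.47 in vehicle and 1.93 with both compounds. In the list as a whole the combined array was closer to DEN than to ATRA, with a median difference of -0.19 from DEN and 0.46 from ATRA. Ddias, a gene of the DNA damage response, was among the 5 largest bounds in the higher direction, at least 11.8-fold, and it was at 0.84 in DEN. The other bounds were Gdpd3, a phospholipase (at least 22.6-fold), Mrgpra2b (18.2-fold), Wdr86 (16.3-fold) and Ctse, an aspartic protease (10.2-fold). Gdpd3 was measured in ATRA and DEN as well, whereas Mrgpra2b, Wdr86 and Ctse were above background in ATRA+DEN alone among the 4 arrays. In all, 868 named genes were above background with ATRA+DEN and not with vehicle, and 183 the other way. Over all probes, 50.7% were well above background on the ATRA+DEN array and 45.9% on the vehicle array. The part of this difference between the arrays in those counts was not tested.

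The 200 bases before the upstream start of Cdkn1a (RefSeq, GRCm38.p6, chr17:29090779-29090978, plus strand, 1 of 2 starts of the gene) are shown because they hold a match to the p53 pattern searched here, in capitals.
Cdkn1a: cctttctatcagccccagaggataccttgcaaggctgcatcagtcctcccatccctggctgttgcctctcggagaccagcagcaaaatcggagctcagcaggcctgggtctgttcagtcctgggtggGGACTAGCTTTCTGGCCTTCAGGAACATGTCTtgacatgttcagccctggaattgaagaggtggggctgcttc
The pattern was 2 half-sites of the p53 response element at most 13 bases apart, searched on both strands. It was in 1 of the 28 list genes with such a sequence and in 0.046% of all sequences of that length. A match gives the letters only. The stretch that p53 binds may be another, and binding was not tested.

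**Figure D2:**
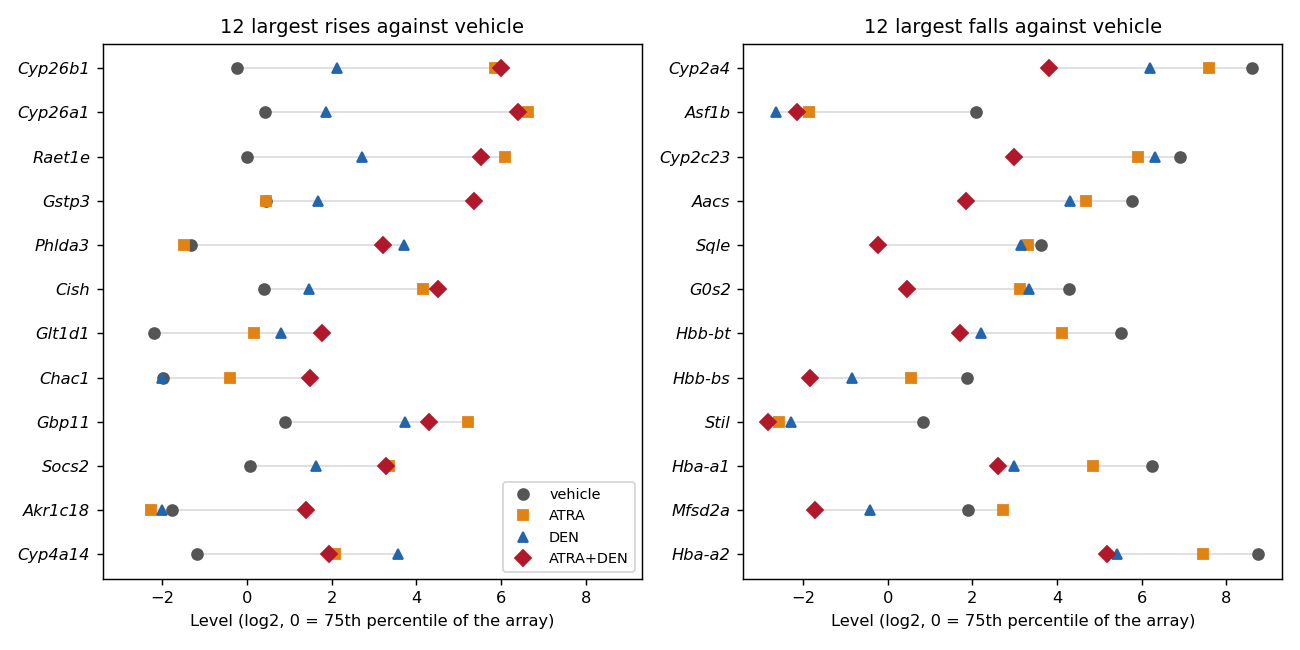
Levels of the 12 genes furthest above vehicle and the 12 furthest below it in ATRA+DEN, on all 4 day-2 arrays (log2, 0 is the 75th percentile of the array). Each row is 1 gene and each symbol 1 array. Cyp26a1 and Cyp26b1 with ATRA+DEN lie within 0.23 of ATRA, Phlda3 with ATRA+DEN lies nearest to DEN, and Gstp3, Akr1c18, Sqle and G0s2 stand apart from the other 3 arrays.

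Nearly all genes of cholesterol synthesis were lower with both compounds than with vehicle, ATRA or DEN. All 25 on the list were kept, 14 were at least 2-fold lower, none was 2-fold higher, and 24 lay below 0 where 57.6% of all kept genes did. The median was -1.20 with ATRA+DEN, -0.36 with ATRA and -0.25 with DEN. Sqle, the squalene epoxidase (chromosome 15, 59162688 to 59162747), had levels of 3.61 in vehicle, 3.31 in ATRA, 3.16 in DEN and -0.24 in ATRA+DEN, so that vehicle and both single compounds lay within 0.46 of each other and ATRA+DEN was 14.5-fold below vehicle. Cyp51, the lanosterol demethylase, had 0.11 in vehicle, -0.39 in ATRA, -0.08 in DEN and -2.70 in ATRA+DEN. Its difference was -2.80. Fdps, which makes farnesyl diphosphate, had 6.34 in vehicle, 5.41 in ATRA, 5.81 in DEN and 3.68 in ATRA+DEN, a difference of -2.67.

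Further members of the pathway were also lowest with both compounds. Mvd, the mevalonate diphosphate decarboxylase, was lower by 2.47. Insig1, a sterol-sensitive brake on SREBP that is also its target, was lower by 2.21. Nsdhl, which removes methyl groups from sterol intermediates, was lower by 2.03. Hmgcs1, the synthase of HMG-CoA, had 6.02 in vehicle, 5.57 in ATRA, 5.35 in DEN and 4.46 in ATRA+DEN. Acat2, the thiolase of cytosolic acetoacetyl-CoA, was the member above 0, at 0.43.

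The comparison can also be made without the vehicle array. Against ATRA, 11 of 25 members were at least 2-fold lower with both compounds (1.52% of all genes above background on all 4 arrays), and against DEN 13 were (1.63%). The list medians were -0.82 and -1.10. In 24 of the 25 the ATRA+DEN array was the lowest of the 4, which held for 27.7% of all genes.

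The 200 bases before Hmgcs1 (RefSeq, GRCm38.p6, chr13:119690151-119690350, plus strand) are shown for the sterol element TCACCCCAC, in capitals, which SREBP is known to bind.
Hmgcs1: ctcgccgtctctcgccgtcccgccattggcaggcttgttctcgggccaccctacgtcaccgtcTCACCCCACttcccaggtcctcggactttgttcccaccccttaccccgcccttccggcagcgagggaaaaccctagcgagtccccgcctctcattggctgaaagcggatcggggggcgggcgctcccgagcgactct
It was the 1 gene among 17 of the list with such a sequence to hold these letters on either strand, and 0.402% of all sequences of that length held them.

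Fatty acid and triglyceride synthesis went the same way. Of 24 genes 23 were kept, 11 were at least 2-fold lower, none was 2-fold higher, and the median was -0.98, against -0.11 with ATRA and -0.29 with DEN. Fasn, the fatty acid synthase, had levels of 3.69 in vehicle, 2.27 in ATRA, 2.62 in DEN and 0.15 in ATRA+DEN, which is 11.6-fold below vehicle. Thrsp, a lipogenic gene that responds to thyroid hormone and carbohydrate, had 8.27 in vehicle, 7.13 in ATRA, 6.88 in DEN and 4.91 in ATRA+DEN, a difference of -3.37. Scd1, the stearoyl-CoA desaturase, had 7.46 in vehicle, 7.49 in ATRA, 6.98 in DEN and 5.10 in ATRA+DEN, a difference of -2.36. Fasn and Thrsp were also more than 2-fold lower with each single compound, while Scd1 was at the vehicle level with ATRA.

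Gpam, the first enzyme of triglyceride assembly, Acly, which makes cytosolic acetyl-CoA, and Acss2, an acetyl-CoA synthetase, were lower by 1.94, 1.77 and 1.49. Srebf1, the gene of SREBP-1, was at 3.41 in vehicle and 2.11 with both compounds. Pnpla3, a lipase that SREBP-1 induces, was at 0.64 in vehicle, 1.37 in ATRA and 0.43 in DEN and was not well above background with ATRA+DEN, where it was at least 18.8-fold lower. Against ATRA 8 of the 23 were at least 2-fold lower (1.52% of all genes above background on all 4 arrays), and against DEN 7 were (1.63%). Mlxipl, the carbohydrate-response factor, and Dgat1, a triglyceride synthase, were the members above 0, at 0.38 and 0.28.

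**Figure D3:**
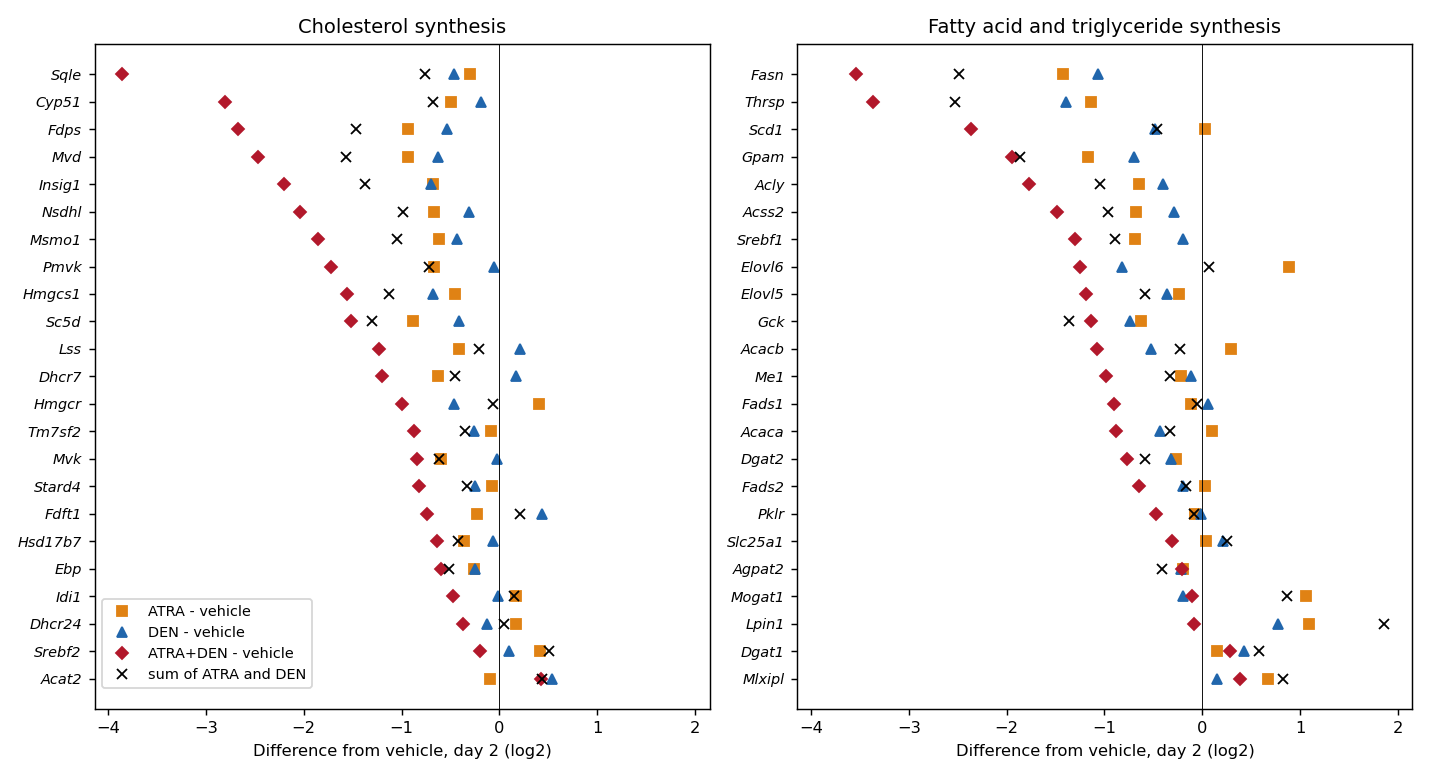
Difference from vehicle (log2) of 23 of the 25 kept genes of cholesterol synthesis and of all 23 of fatty acid and triglyceride synthesis with ATRA, DEN and ATRA+DEN at day 2, and the sum of the ATRA and DEN differences (crosses). The ATRA+DEN diamonds lie left of the cross in all plotted cholesterol genes and in 21 of 23 fatty acid genes. All 4 symbols of a gene use the same vehicle array.

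G0s2, an inhibitor of the triglyceride lipase ATGL and the gene targeted by siRNA elsewhere in the series, was among the 12 largest lower differences. On the 4 arrays of day 2 it read 4.29 in vehicle, 3.12 in ATRA, 3.33 in DEN and 0.45 in ATRA+DEN, a 14.3-fold difference between ATRA+DEN and vehicle. The array with both compounds was -2.68 from ATRA and -2.89 from DEN. By day 7 G0s2 stood at 3.93 in vehicle, 4.22 in ATRA, 3.39 in DEN and 2.83 in ATRA+DEN by the titles. It belongs to the list of lipid droplet and lipolysis genes, of which 15 of 17 were kept and 2 were at least 2-fold lower, G0s2 and the droplet coat protein Plin4, with no member 2-fold higher and a median of -0.36.

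Other liver genes far below vehicle were metabolic enzymes and transporters. Cyp2a4, a steroid hydroxylase with near-identical family members, had 8.60 in vehicle, 7.58 in ATRA, 6.19 in DEN and 3.81 in ATRA+DEN, which is 27.7-fold and the largest lower difference among the named genes. Cyp2c23, an arachidonic acid epoxygenase, had 6.91 in vehicle, 5.92 in ATRA, 6.32 in DEN and 2.97 in ATRA+DEN, and Aacs, which uses ketone bodies for lipid synthesis, had 5.77 in vehicle, 4.69 in ATRA, 4.32 in DEN and 1.85 in ATRA+DEN. In all 3 the ATRA+DEN array was more than 2 below each of the other 3 arrays. Mfsd2a, a carrier of lysophospholipids that fasting induces in liver, had 1.90 in vehicle, 2.72 in ATRA, -0.43 in DEN and -1.71 in ATRA+DEN. It was high with vehicle and ATRA and low with DEN and ATRA+DEN. Asf1b and Stil, genes of dividing cells, were higher in vehicle than in the other 3 arrays by more than 2, like the pancreas genes.

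Each gene's combined difference was next set against the sum of the ATRA and the DEN difference. The departure from the sum is the combined difference minus that sum, 0 where both compounds add on the log2 scale. The vehicle array is in all 3 differences and enters the sum 2 times, so an odd vehicle level moves the departure the other way from the combined difference. Over the 17942 genes above background on all 4 arrays, 417 (2.32%) were at least 2-fold higher and 332 (1.85%) at least 2-fold lower with both compounds. With ATRA alone 278 (1.55%) were higher and 252 (1.4%) lower, and with DEN alone 249 (1.39%) were higher and 289 (1.61%) lower. The departure had a median of 0.03 and an SD of 0.56. It was at least 1 above in 614 genes (3.42%) and at least 1 below in 613 (3.42%). Centring each array on its median instead gave 461 above and 768 below, and normexp background correction gave 206 above and 363 below. A linear sum, where intensities are added before the log2 is taken, tilted the other way, with 908 above and 477 below where it could be computed. The balance of both sides thus depends on the scaling and on the scale of the sum.

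Among the 417 genes at least 2-fold higher with both compounds, 308 (73.9%) lay within 2-fold of the sum, 53 were beyond it and 56 fell short of it. Among the 332 at least 2-fold lower, 202 (60.8%) were within, 62 beyond and 68 short. Choosing genes by the sum instead gives another split. Of 987 genes whose sum was at least 1, 617 were within, 2 beyond and 368 short, and of 1212 with a sum of -1 or less, 745 were within, 13 beyond and 454 short. Choosing on either axis pulls the departure in opposite directions, so neither split is read as a share of additive genes. Without the genes in which the vehicle array stood 2-fold outside the other 3, the split was 296 within, 53 beyond and 12 short for higher genes, and 194, 58 and 8 for lower genes. This filter selects as well, because a vehicle level outside the other 3 tends to put the combined difference short of the sum. It took out mostly genes of the short class, so this split is no share of additive genes either.

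**Figure D4:**
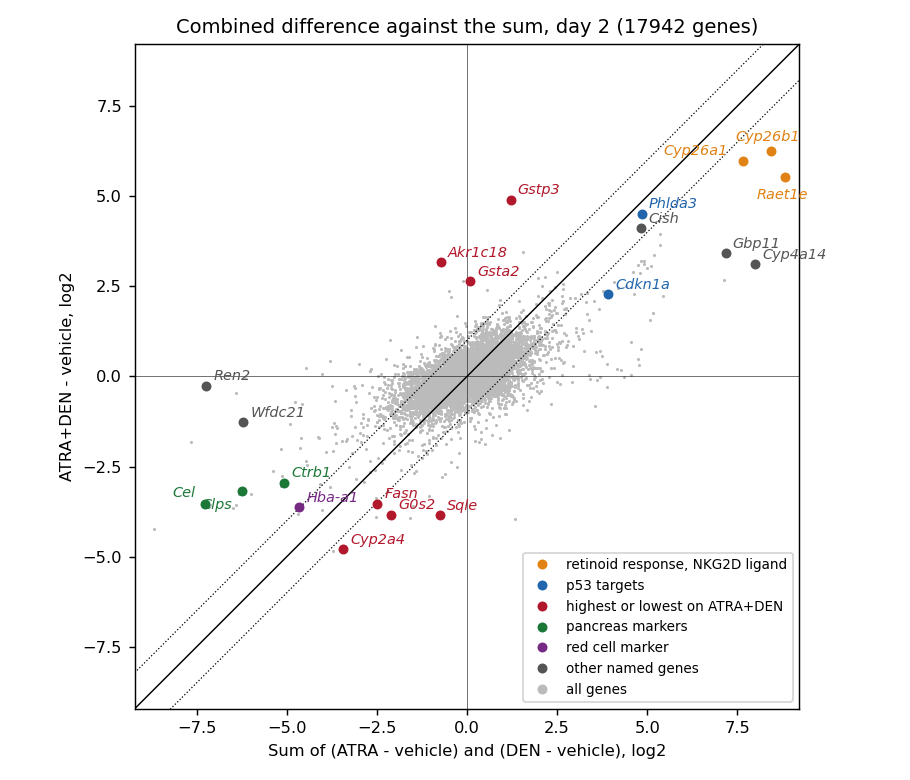
ATRA+DEN minus vehicle against the sum of ATRA minus vehicle and DEN minus vehicle (both log2) for 17942 genes at day 2. The solid line marks a departure of 0 and the dotted lines a departure of 1 either way. Cyp26a1, Cyp26b1 and Raet1e lie below the line, Sqle and G0s2 lie further down than their sums, Gstp3, Akr1c18 and Gsta2 lie above, and the pancreas markers Cel, Clps and Ctrb1 lie above at the far left.

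Both Cyp26 genes and both kept NKG2D ligands fell short of the log2 sum, whereas the retinoid list had a median departure of -0.02, with 12 members above 0 and 12 below. The departure was -2.20 for Cyp26b1, -1.68 for Cyp26a1 and -3.30 for Raet1e. In these genes the DEN array was above vehicle as well, and the combined array was nearer to ATRA than to DEN. Cdkn1a fell short by 1.64 and Phlda3 by 0.33, and Mdm2 lay at 0.13. Of 27 p53 targets, 20 had a departure below 0 against 46.5% of all genes, and 4 were at least 1 below. Cyp4a14, a fatty acid omega-hydroxylase that PPAR alpha induces, had the largest departure below the sum among the named genes. Its levels were -1.18 in vehicle, 2.08 in ATRA, 3.57 in DEN and 1.93 in ATRA+DEN, so each single compound was at least as high as both together, and the departure was -4.89. Gbp11, an interferon-induced GTPase, had 0.89 in vehicle, 5.21 in ATRA, 3.74 in DEN and 4.30 in ATRA+DEN and a departure of -3.76. In Cyp26b1, Cyp26a1, Raet1e, Cdkn1a, Cyp4a14 and Gbp11 the vehicle array stood at least 2-fold below every other array. Such a vehicle level tends to put the combined difference short of the sum, and the filter on the vehicle array leaves these genes out. The part of the vehicle level in their shortfall was not tested.

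Much of this shortfall depends on the log2 scale. With a linear sum, where the intensities above vehicle are added before the log2 is taken, the departure of Cyp26b1 turned to 0.07 and that of Cyp26a1 was -0.26. Raet1e moved to -0.68, Cdkn1a to -0.81, Gbp11 to -1.30 and Cyp4a14 to -2.04. The departure of Phlda3 was -0.49 on that scale, and Sqle (-2.96), Gstp3 (3.69) and Akr1c18 (4.00) were close to their log2 values.

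Most other genes with a large departure were set apart by 1 array. Morc4, a chromatin ATPase, was at 3.25 in ATRA and between -1.24 and -0.43 in the other 3. Tmprss4, H2-Eb1 and Prom1 were also highest in ATRA, and their departures were -4.17, -4.05 and -3.55. Tmprss4 was not set apart by ATRA alone, with -2.04 in vehicle, 0.35 in ATRA, -0.56 in DEN and -2.34 in ATRA+DEN. Gpr27 was high in DEN alone, at 1.44, with a departure of -3.34. Mas1, a receptor of the renin-angiotensin system, had a departure of -3.53 and was lowest in vehicle. Another probe of Mas1 gave a difference from vehicle of 0.47 where the main probe gave 1.55.

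Departures above the sum took several forms. In Asf1b (4.45), Cel (3.74) and Ctrc (3.58) the vehicle array alone was high, and Cel and Ctrc are pancreatic enzymes. In Ren2, a renin gene near-identical to Ren1, the levels were 2.58 in vehicle, -1.02 in ATRA, -1.05 in DEN and 2.33 in ATRA+DEN, and in Nox4, an NADPH oxidase, they were 0.87 in vehicle, -1.58 in ATRA, -0.48 in DEN and 1.29 in ATRA+DEN. Vehicle and ATRA+DEN were high in both and the single-compound arrays low. Wfdc21, a secreted protein of inflammation, had 8.50 in vehicle, 7.47 in ATRA, 3.32 in DEN and 7.23 in ATRA+DEN and was low in DEN only.

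The last form holds genes that were high on the combined array alone. Gstp3, a pi-class glutathione transferase (chromosome 19, 4057988 to 4058137), had levels of 0.45 in vehicle, 0.44 in ATRA, 1.66 in DEN and 5.35 in ATRA+DEN, which is 29.9-fold above vehicle with a departure of 3.70. Akr1c18, which inactivates progesterone, had -1.77 in vehicle, -2.27 in ATRA, -2.001 in DEN and 1.40 in ATRA+DEN and a departure of 3.89. Gsta2, an alpha-class glutathione transferase, had 2.56 in vehicle, 2.47 in ATRA, 2.74 in DEN and 5.21 in ATRA+DEN and a departure of 2.55. In each of these genes the ATRA+DEN array stood at least 2.46 above the nearest of the other 3. Gstp3 did not keep this pattern at day 7, where its levels were 6.48 in vehicle, 1.48 in ATRA, 3.31 in DEN and 3.41 in ATRA+DEN.

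Over all genes above background on the 4 arrays, the ATRA+DEN array stood at least 2-fold above the other 3 in 39 (0.217%) and at least 2-fold below them in 68 (0.379%). The same counts were 72 and 56 for vehicle, 43 and 28 for ATRA, and 50 and 39 for DEN. Of the 4 arrays, ATRA+DEN was the least often apart on the high side and the most often on the low side. Of the 45 named genes lowest on it by that margin, 13 were on the cholesterol or fatty acid synthesis list. Among them were Sqle, Cyp51, Fasn, Thrsp, Scd1, Fdps, Mvd, Insig1, Nsdhl, Msmo1, Acly and Pmvk. Others were G0s2, Cyp2a4, Cyp2c23, Aacs, the desaturase Scd3, Mid1ip1, a partner of acetyl-CoA carboxylase, and Angptl8, an insulin-induced regulator of lipoprotein lipase that was at 7.75 in vehicle and 4.42 with both compounds. The 20 named genes highest on it included Chac1, which degrades glutathione, Ly6a, Clec7a, Lgr5, Notch1 and Spp1.

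The departure of the lipid synthesis genes lay on the lower side. All 25 cholesterol genes had a departure below 0, 7 of them at least 1 below, with a median of -0.75 against 0.03 over all genes. Of all genes 46.5% lay below 0 and 3.42% at least 1 below. Sqle had a departure of -3.09 and Cyp51 of -2.12, the 2 largest of the cholesterol genes. Of 23 fatty acid genes 21 lay below 0, 4 at least 1 below, with a median of -0.56. Lpin1, a phosphatidate phosphatase, had a departure of -1.94 without a difference from vehicle, since ATRA and DEN were each higher than vehicle and the combination was not. G0s2 had a departure of -1.73.

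**Figure D5:**
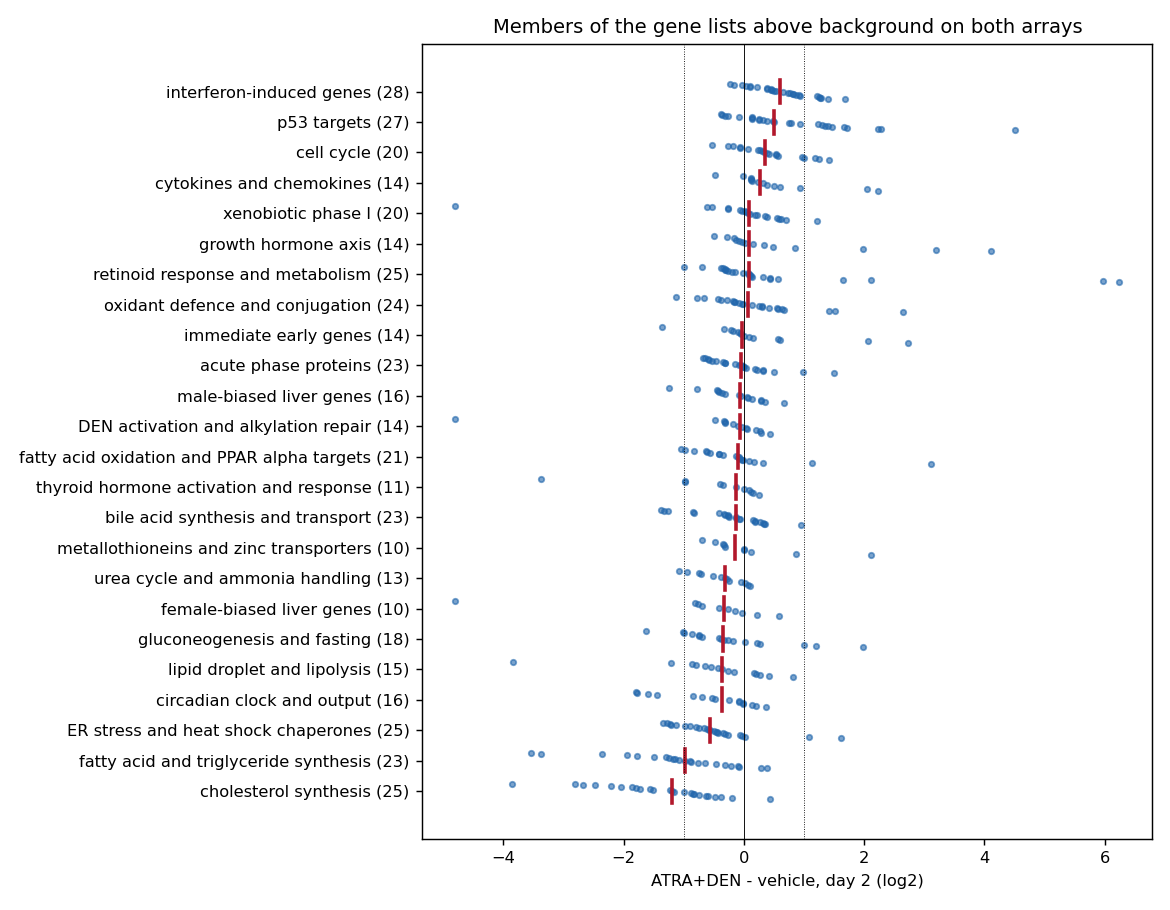
Difference of ATRA+DEN from vehicle at day 2 (log2) for the kept members of each gene list with at least 3 of them (number in brackets). Points are genes, spread vertically in order of value, red bars are list medians and dotted lines mark 2-fold. Interferon-induced and p53 lists have medians of 0.60 and 0.51, and the lists of fatty acid and cholesterol synthesis have medians of -0.98 and -1.20.

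Feedback genes of growth hormone signalling were high on both arrays with ATRA. Cish, a feedback inhibitor of cytokine receptors, had 0.40 in vehicle, 4.15 in ATRA, 1.47 in DEN and 4.51 in ATRA+DEN, which is 17.2-fold above vehicle, and Socs2, another such inhibitor, had 0.08 in vehicle, 3.35 in ATRA, 1.64 in DEN and 3.28 in ATRA+DEN, which is 9.19-fold. Igfbp1, a binding protein of insulin-like growth factors, was 1.98 above vehicle. These were the 3 of 14 members that were at least 2-fold higher (2.3% of all kept genes were), none was lower, and the median was 0.08. In Cish and Socs2 the vehicle array stood at least 2-fold below every other array. At day 7, by the titles, Cish was at 4.93 in vehicle and 4.12 in ATRA+DEN, and Socs2 at 1.79 and 1.39. Both were then below vehicle, by 0.81 and 0.40. Read by the treatment characteristic, which disagrees with the titles there, the differences were -0.89 and 0.32. Glt1d1, a glycosyltransferase, had -2.19 in vehicle, 0.17 in ATRA, 0.79 in DEN and 1.76 in ATRA+DEN. Chac1 had -1.98 in vehicle, -0.41 in ATRA, -2.01 in DEN and 1.48 in ATRA+DEN, with vehicle and DEN alike and ATRA+DEN highest.

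Interferon-induced genes were higher by small amounts in most members. Of 28 kept, 25 lay above 0 where 42.4% of all kept genes did, 6 were at least 2-fold higher, none was 2-fold lower, and the median was 0.60, against 0.19 with ATRA and 0.75 with DEN. Mx2, an antiviral GTPase, had 0.16 in vehicle, 0.11 in ATRA, 1.66 in DEN and 1.83 in ATRA+DEN, and Irf7, the regulator of type I interferon, had -2.41 in vehicle, -1.20 in ATRA, -1.17 in DEN and -1.13 in ATRA+DEN. Mx2 was high with DEN and with both, whereas Irf7 was alike on the 3 treated arrays. Of the cytokine list, 14 of 24 were kept. Its 2 members at least 2-fold higher were Cxcl14, with -0.49 in vehicle, 3.25 in ATRA, 1.20 in DEN and 1.73 in ATRA+DEN, and Ccl2, the monocyte attractant, with -2.94 in vehicle, -3.01 in ATRA, -0.61 in DEN and -0.89 in ATRA+DEN.

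Cell cycle genes stood below vehicle with DEN alone and above it with both compounds. Of 20 kept, 4 were at least 2-fold higher with ATRA+DEN, none was 2-fold lower, and the median was 0.36, against 0.23 with ATRA and -0.42 with DEN. With normexp background correction the median was 0.225. Mki67, the proliferation antigen, had -1.84 in vehicle, -0.88 in ATRA, -2.99 in DEN and -0.66 in ATRA+DEN. Cdc20, which activates the anaphase-promoting complex, had -1.69 in vehicle, -0.75 in ATRA, -2.26 in DEN and -0.27 in ATRA+DEN, and Birc5, a passenger protein of mitosis, had -0.68 in vehicle, 0.06 in ATRA, -1.88 in DEN and 0.58 in ATRA+DEN. The DEN array was the lowest and ATRA+DEN the highest in all 3. Of 18 members above background on all 4 arrays, 14 had a departure above 0, 5 of them at least 1, with a median of 0.62. Over all genes 53.5% lay above 0 and 3.42% at least 1 above, with a median of 0.03. Most levels of the cell cycle genes are below the 75th percentile of the array, and 5 more members, Cdk1 among them, were above background with ATRA+DEN and not with vehicle. The ATRA+DEN array had more probes above background in general, 50.7% against 45.9% in vehicle.

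Chaperones of the endoplasmic reticulum were lower. Of 25 kept genes of ER stress and heat shock, 22 lay below 0 (57.6% of all kept genes did), 5 were at least 2-fold lower and 2 at least 2-fold higher. The median was -0.55, and -0.36 with normexp background correction. Creld2 and Manf, which the unfolded protein response induces, were lower by 1.34 and 1.21, in the order vehicle, then both single compounds, then ATRA+DEN. Hsp90aa1, a cytosolic heat shock protein, was lower by 1.13. Trib3, a pseudokinase of the amino acid stress response, was higher, with 0.21 in vehicle, 1.48 in ATRA, 0.28 in DEN and 1.82 in ATRA+DEN, and Hspa1a, the inducible Hsp70, was 1.09 above vehicle.

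Clock genes differed between arrays that share a day. Of 16 kept 4 were at least 2-fold lower (2.01% of all kept genes were) and none was 2-fold higher (2.3%). Per1, Per2 and the deubiquitinase Usp2 were lower by 1.60, 1.77 and 1.80, and were lower in DEN as well. Bhlhe40, a repressor of the clock, was lower by 1.45 with both compounds only. The hour at which livers were taken is not given in the sources used here, so its part in these values was not tested.

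Other metabolic lists had few members at least 2-fold apart. Over all kept genes 2.3% were at least 2-fold higher and 2.01% at least 2-fold lower. Of 24 genes of oxidant defence and conjugation kept, 3 were at least 2-fold higher, Gsta2, the epoxide hydrolase Ephx1 (1.51) and the quinone reductase Nqo1 (1.42). Gstm6 was lower (-1.12), although its 2 other probes gave -0.934 and -0.928. Of 23 bile acid genes 3 were at least 2-fold lower. Cyp7a1, the rate-limiting enzyme of bile acid synthesis, had 2.13 in vehicle, 1.63 in ATRA, 2.82 in DEN and 0.76 in ATRA+DEN, and Cyp8b1, the sterol 12-hydroxylase, had 1.53 in vehicle, -0.25 in ATRA, 1.90 in DEN and 0.21 in ATRA+DEN. Cyp8b1 was low wherever ATRA was given, and Cyp7a1 was lowest with both. The third was Slc51b, a bile acid exporter of the basal membrane, which was lower by 1.26 and was below background with ATRA.

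Of 21 kept genes of fatty acid oxidation, Cyp4a14 and Cyp4a10 were at least 2-fold higher and the thioesterase Acot1 was lower. Cyp4a10 was 1.13 above vehicle, and its 2 other probes gave 0.45 and 1.27. Of 18 genes of gluconeogenesis and fasting, Igfbp1, Pck1, the enzyme that commits carbon to glucose, and Irs2 were at least 2-fold higher, and Sik1 and G6pc, the glucose 6-phosphatase, were lower. Pck1 had 5.39 in vehicle, 7.70 in ATRA, 5.34 in DEN and 6.59 in ATRA+DEN and was highest with ATRA. Of 14 immediate early genes, Myc (2.73) and Egr1 (2.07) were higher and the phosphatase Dusp1 (-1.36) was lower. Metallothioneins, which bind zinc, had 1 member at least 2-fold higher among 10 kept, Mt2, with 2.26 in vehicle, 4.20 in ATRA, 1.23 in DEN and 4.37 in ATRA+DEN.

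The remaining lists had at most 1 gene apart in each direction, where 2.3% of all kept genes were at least 2-fold higher and 2.01% lower. A count of 1 in a list this short cannot be told from those shares. On the acute phase list Socs3, a cytokine feedback inhibitor, was 1.497 above vehicle, 1 of 23 kept. The serum amyloid genes Saa1 and Saa2 were lower than vehicle by 0.59 and 0.58, and lower still with each compound alone, which gave departures of 1.76 and 2.00. Xenobiotic phase I (20 kept) had Cyp3a13 higher and Cyp2a4 lower. Cyp2a4 was also the 1 lower member of the female-biased list (10 kept) and of the list for DEN activation and alkylation repair (14 kept). Male-biased genes (16 kept) had Egfr lower (-1.25), although its 2 other probes gave -0.84 and -0.75. The urea cycle list (13 kept) had the glutamate carrier Slc1a2 lower, and the thyroid hormone list (11 kept) had Thrsp lower. The medians of these 7 lists lay between -0.34 and 0.09.

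Some markers of other liver cells differed 2-fold, where 2.3% of all kept genes were at least 2-fold higher and 2.01% at least 2-fold lower. Of 13 kept Kupffer cell and macrophage markers, Marco, a scavenger receptor, was 2-fold higher (1.51) and the median was 0.025. Of 15 endothelial markers, Gpr182 and Fcgr2b were at least 2-fold lower, 14 lay below 0 where 57.6% of all kept genes did, and the median was -0.42. Of the 14 above background on all 4 arrays, 10 were highest on the vehicle array, against 33.6% of all genes. No marker of monocytes and neutrophils (7 kept), of lymphocytes (8), of MHC class II (7), of stellate cells and matrix (13) or of muscle (3) differed 2-fold. In lists this short, that is near the share over all genes. Spp1, which bile duct cells and macrophages make, was the 1 of 8 cholangiocyte and progenitor markers at least 2-fold higher, and Adrb3 was the 1 of 2 kept fat markers.

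Several markers of these cells departed from the sum without a difference from vehicle. Of 13 stellate cell and matrix markers, 5 were at least 1 above the sum, and 4 had a departure below 0. Of 6 monocyte and neutrophil markers, 3 were at least 1 above, 2 lay below 0 and 1 of them was at least 1 below. Over all genes 3.42% were at least 1 above and 3.42% at least 1 below. With a linear sum the monocyte and neutrophil median turned from 0.783 to -0.235. Col1a1, a fibrillar collagen, had 1.35 in vehicle, 0.11 in ATRA, -0.53 in DEN and 1.097 in ATRA+DEN and a departure of 2.87, and Col3a1 had 3.00 in vehicle, 2.22 in ATRA, 1.58 in DEN and 2.93 in ATRA+DEN. S100a8, an alarmin of neutrophils, had -0.26 in vehicle, -0.93 in ATRA, -2.28 in DEN and -0.11 in ATRA+DEN and a departure of 2.85. In Col1a1, Col3a1 and S100a8, vehicle and ATRA+DEN were alike and the single compounds lower, DEN lowest. Alas2, the heme synthesis enzyme of red cells, was low in ATRA only, at 2.23, with a departure of 3.35.

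The day-7 arrays share no array with day 2 and give a second set of single values. There, vehicle and DEN lie on one slide and ATRA and ATRA+DEN on another, so the slide and ATRA cannot be told apart. The treatment characteristic of 3 day-7 arrays also disagrees with their titles, which were used here. Of 16629 genes above background on all 4 of these arrays, 429 (2.58%) were at least 2-fold higher and 384 (2.31%) lower. The p53 list had a median of 1.497 and 17 of 27 members at least 2-fold higher. Cdkn1a was at 1.97 in vehicle, 2.84 in ATRA, 6.83 in DEN and 6.62 in ATRA+DEN, and Mdm2 at 3.83 in vehicle, 3.75 in ATRA, 6.06 in DEN and 5.72 in ATRA+DEN. Read by the characteristic instead, the p53 median of the array with both compounds was 0.055.

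By the titles, both Cyp26 genes were nearer to vehicle at day 7. Cyp26a1 was at 2.38 in vehicle, 7.11 in ATRA, 1.35 in DEN and 4.34 in ATRA+DEN, a difference of 1.96, and Cyp26b1 was 0.36 from vehicle. Vehicle of day 7 was itself higher than vehicle of day 2 in both genes. Read by the characteristic, the array with both compounds is the one titled ATRA, and the differences were 4.73 for Cyp26a1 and 2.48 for Cyp26b1. The retinoid list median was then 0.17, against -0.03 by title and 0.08 at day 2, and the NKG2D median was 3.83 against 0.32 by title. The cholesterol list lay on the other side of 0 at day 7. Its median was 0.56, 23 of 25 members lay above 0, and Sqle was at 3.14 in vehicle, 4.84 in ATRA, 3.64 in DEN and 5.15 in ATRA+DEN. The ATRA and ATRA+DEN arrays, which share a slide, were both higher in Sqle than vehicle and DEN. Read by the characteristic, the cholesterol median was 0.55. By title, fatty acid synthesis had a median of -0.05 at day 7 and no member 2-fold apart.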

How the data were processed

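Liver RNA was hybridised to Agilent 1-colour (Cy3) arrays, 1 per group, whose number limits the precision. The deposited files hold spot intensities that, per the file headers, Agilent Feature Extraction had background-subtracted, detrended and filled with surrogates where dim (version 10.7.1.1, whereas the submitters' processing notes give 9.5.1.1). The authors' deposited series table holds linear intensities whose columns have a common median within a day (log2 3.89 at day 2, 3.77 at day 7), with no genes centred, and each column followed its own array across probes (r of at least 0.999). It served as an alternative only. From the processed intensities, log2 levels minus the array's 75th percentile were computed without control spots and outlier-flagged spots, and spots of a probe were averaged (55681 probes, none saturated). Between 45.9% (vehicle) and 50.7% (ATRA+DEN) of probes of the 4 arrays were well above background. Probes were named through RefSeq (GRCm38.p6) by accession (27235), symbol (3581) or synonym (565), and 24300 kept the array's name. A gene was its probe with the highest mean level over 12 arrays. Probe positions are on mm9, per the file headers.

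No test was made. Genes at least 2-fold apart and departures of at least 1 were counted. For a gene above background on 1 array only, a bound was the bright level against the higher of the dim array's lowest level well above background and the dim probe's own level. Named were 4 fixed genes (G0s2, Cyp26a1, Cdkn1a, Mdm2), the 12 largest differences and 8 largest departures each way, the 5 largest bounds each way, and members of 25 pathway and 12 cell-type lists at least 2-fold apart or with a departure of at least 1, up to 6 a list and up to 2 defining ones. Genes highest or lowest on the ATRA+DEN array alone, Dgat1, Mlxipl, Acat2, Pnpla3 and Angptl8 among the others named, were picked after their values were seen. Of the genes counted in the lists, 2 are not reported here by name. Members and lists were chosen with earlier results of these data known. Alternatives were normexp (offset 50) and quantile normalization (limma 3.58.1, R 4.3.3), median centring, the series table, other filters, another fold and a linear sum.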

Additional observations from a re-analysis of the deposited data

Results flagged for a closer look

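In 3 named genes the combined array was at least 2-fold on one side of vehicle at day 2 and at least 2-fold on the other side at day 7. The difference between days was not tested, and at day 7 the compared arrays lie on different slides. Groups of day 7 are those of the titles. Sqle, the squalene epoxidase, was -3.85 from vehicle at day 2 and 2.02 at day 7. Gstp3, the glutathione transferase, was 4.90 above vehicle at day 2 and -3.06 from it at day 7, where the vehicle array had the highest level of the 4. Chac1, which degrades glutathione, was 3.46 above vehicle at day 2 and -1.04 from it at day 7. Read by the treatment characteristic, which disagrees with the titles at day 7, the day-7 differences were 1.71 for Sqle, -5.001 for Gstp3 and -1.78 for Chac1.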

How the results depend on the processing

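Counts of genes at least 2-fold higher and lower (426 and 373) became 207 and 153 with normexp background correction, 1567 and 2361 without a filter on dim probes, and 1301 and 1356 at 1.5-fold. Departures of at least 1 above and below the sum (614 and 613) became 206 and 363 with normexp, 3201 and 2642 without the filter, and 1786 and 1588 at 1.5-fold. With a linear sum they became 908 and 477. With the filter on the vehicle and ATRA+DEN arrays only, 933 lay above. Without the genes at which the vehicle array stood apart, an alternative chosen after seeing the data, the counts were 370 and 301. The cause of these changes was not tested, except that a lower fold and no filter admit more genes. The median difference of cholesterol synthesis was -0.98 with normexp, and its median departure was -0.59 with normexp and -0.51 with a linear sum. For fatty acid synthesis the median difference was -0.82 with normexp, -0.88 with quantile normalization and -0.88 with the authors' deposited series table (-0.877 and -0.879). Over all alternatives run, the cholesterol median lay between -1.21 and -0.98, the fatty acid median between -1.03 and -0.82 and the p53 median between 0.51 and 0.60. The linear sum turned the departure of Cyp26b1 to 0.071 and that of Glt1d1 to 0.36, and could not be computed for 14 of 37 named genes whose summed signal was not above 0. Of the other values of single genes, the small difference of Gpr27 changed sign with normexp and the departure of Cish with the linear sum. The median of the kept genes lay between -0.07 and -0.02 over the scalings. No paired analysis was possible because each group is 1 array. Slide as a block and leaving out a replicate were not run, since the compared arrays share 1 slide and no group has a second array.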
